A study of Mus musculus with 32 samples.

Results

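Core cartilage matrix genes were followed through 32 RNA sequencing libraries of primary mouse chondrocytes. The 10 genes were Acan, Col2a1, Hapln1, Comp, Matn1, Matn3, Col9a1, Col9a2, Col9a3 and Col11a1, chosen for the structural role of their products and matched by symbol to the identifiers of the count tables, in which they are 10 of 41388 genes. Earlier results of these data were known when the 10 genes were chosen. The labels call the cells sternal chondrocytes of C57BL/6 mice, and the methods of the study name newborn sterna and ribs as their source. They were not passaged, and each of 16 conditions had 2 libraries. Wild-type cells, which received no virus, were left untreated or were treated for 24 h with IL-1β, a pro-inflammatory cytokine, with FX11, a small-molecule inhibitor of lactate dehydrogenase A, or with both. Cells carrying floxed alleles were infected with adenovirus expressing eGFP (GFP) or Cre and eGFP (Cre) and kept for a further 24 h in medium lacking or containing IL-1β, so that each of the lines LDHA flox, NAMPT flox and NFKBIZ flox had the groups GFP, GFP + IL-1β, Cre and Cre + IL-1β. In the study's methods IL-1β was used at 10 ng/mL and FX11 at 40 µM. Ldha encodes the A subunit of lactate dehydrogenase, Nampt the rate-limiting enzyme of NAD salvage, and Nfkbiz the nuclear NF-κB cofactor IκB-ζ. Unfloxed cells given Cre virus were not analysed here, so within a line the deletion and the Cre virus itself cannot be told apart.

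Hyaline cartilage is a network of thin collagen fibrils filled with proteoglycan. The fibrils are heteropolymers of type II collagen, a homotrimer of the Col2a1 product, with type XI collagen, whose chains include that of Col11a1, and type IX collagen, a heterotrimer of the Col9a1, Col9a2 and Col9a3 products, sits on their surface. Aggrecan, the Acan product, binds hyaluronan, and the link protein encoded by Hapln1 locks that bond. Cartilage oligomeric matrix protein (Comp) and the matrilins 1 and 3 (Matn1, Matn3) are adaptors that connect fibrils with the proteoglycan. In chondrocytes these genes are known targets of Sox9 acting with Sox5 and Sox6, and inflammatory cytokines such as IL-1β are known to lower the expression of several of them.

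The files place Col2a1 (ENSMUSG00000022483) on the reverse strand of GRCm38 at chr15:97975602-98004695 and Col11a1 (ENSMUSG00000027966) on the forward strand at chr3:114030540-114220718. Of the type IX genes, Col9a1 (ENSMUSG00000026147) lies at chr1:24177610-24252684, Col9a2 (ENSMUSG00000028626) at chr4:121039385-121055322 and Col9a3 (ENSMUSG00000027570) at chr2:180597790-180622189. Acan (ENSMUSG00000030607) lies at chr7:79053483-79115099, Hapln1 (ENSMUSG00000021613) at chr13:89540636-89611832 and Comp (ENSMUSG00000031849) at chr8:70373548-70382065. Matn1 (ENSMUSG00000040533) lies at chr4:130944385-130955475 and Matn3 (ENSMUSG00000020583) at chr12:8947929-8972028, and apart from Col2a1 all 10 are on the forward strand. Counts were taken over the exons of each gene. Hapln1 overlaps Gm8546 and Col9a3 overlaps Tcfl5 on the opposite strand, and whether counting used the strand was not given in the sources used here, so reads of these neighbours may be included.

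RefSeq promoter windows on GRCm38.p6, from 250 bases before to 50 bases after a transcription start, were found for 7 of the 10 genes, in 8 windows of 300 bases because Col9a1 has 2 starts. Col2a1, Comp and Col9a3 had no entry. The windows of Hapln1, Matn3 and Col11a1 are shown because these genes moved furthest when Cre and IL-1β were combined in the LDHA flox and NAMPT flox lines, and that of Matn1 because it did not. They cover chr13:89540386-89540685, chr12:8947679-8947978, chr3:114030290-114030589 and chr4:130944135-130944434, all on the forward strand, and capitals mark every match, on either strand, to the motifs named after them.
Hapln1: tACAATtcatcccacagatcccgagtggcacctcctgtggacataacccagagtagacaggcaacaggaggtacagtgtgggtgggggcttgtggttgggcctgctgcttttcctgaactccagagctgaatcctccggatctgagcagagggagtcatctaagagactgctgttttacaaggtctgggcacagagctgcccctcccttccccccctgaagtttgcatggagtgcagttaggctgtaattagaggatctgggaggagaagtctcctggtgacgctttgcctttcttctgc
Matn3: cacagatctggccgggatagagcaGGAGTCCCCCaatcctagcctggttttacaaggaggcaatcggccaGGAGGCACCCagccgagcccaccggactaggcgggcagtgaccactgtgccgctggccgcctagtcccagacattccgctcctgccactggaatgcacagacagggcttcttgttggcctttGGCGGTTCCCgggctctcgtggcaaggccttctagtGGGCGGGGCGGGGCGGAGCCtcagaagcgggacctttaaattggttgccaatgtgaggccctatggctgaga
Col11a1: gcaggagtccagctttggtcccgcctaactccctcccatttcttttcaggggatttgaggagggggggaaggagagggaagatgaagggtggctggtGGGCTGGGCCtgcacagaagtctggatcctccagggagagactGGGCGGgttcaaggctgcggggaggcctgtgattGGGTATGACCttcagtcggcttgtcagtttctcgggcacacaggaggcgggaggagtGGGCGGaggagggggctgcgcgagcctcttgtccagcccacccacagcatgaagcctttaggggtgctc
Matn1: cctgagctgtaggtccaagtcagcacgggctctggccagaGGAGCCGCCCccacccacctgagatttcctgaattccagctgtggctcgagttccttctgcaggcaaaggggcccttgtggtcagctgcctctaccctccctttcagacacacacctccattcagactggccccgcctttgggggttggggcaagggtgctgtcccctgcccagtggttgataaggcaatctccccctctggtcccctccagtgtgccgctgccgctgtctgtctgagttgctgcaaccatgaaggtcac

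The motifs searched were the SOX core ACAAT, the AP-1 motif TGANTCA, the kappa-B motif (GGG, any 5 bases, then CC), the GC box GGGCGG and the TATA box TATAAA, and matches may overlap, as the GC boxes and a kappa-B match do in Matn3. The SOX core was found in the Hapln1 window and in none of the other 7, and in 31.0% of all 32851 promoter windows. Kappa-B matches were found in 7 of the 8 windows, all but that of Hapln1, against 50.8% of all windows, and GC boxes in 5 of the 8 against 35.7%. No window held the AP-1 motif (7.81% of all) or the TATA box (13.6% of all). The 4 printed windows thus differ in these letters, with 4 kappa-B and 3 GC box matches in Matn3, 2 of each in Col11a1, 1 of each in Matn1 and neither in Hapln1.

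The libraries held 15830658 to 39959888 counts each, with a median of 25363482. The titles are numbered in 2 series, here called library set 1 (12 libraries) and set 2 (20 libraries). In wild-type, LDHA flox and NAMPT flox cells the first library of a group is from set 1 and the second from set 2, and all NFKBIZ flox libraries are from set 2. The labels name no separate cultures or animals, so p-values measure the spread between libraries, which may be technical. Levels are CPM, counts scaled by library size, with TMM factors, and a gene was called at an edgeR quasi-likelihood adjusted p of 0.05 or less over all genes tested. The deleted genes followed the labels. Ldha stood at 918 and 869 CPM in LDHA flox GFP libraries and at 118 and 111 CPM with Cre, Nampt at 59.5 and 54.6 CPM in NAMPT flox GFP libraries and at 6.72 and 6.86 CPM with Cre, and Nfkbiz at 235 and 229 CPM in NFKBIZ flox GFP + IL-1β libraries and at 29.5 and 32.3 CPM with Cre + IL-1β. Without IL-1β, Nfkbiz was at 16.1 and 17.0 CPM in NFKBIZ flox GFP libraries and at 9.65 and 8.28 CPM with Cre. Under IL-1β, Nfkbiz was also lower with Cre in the lines where it is not floxed. It went from 177 and 164 to 69.7 and 66.9 CPM in LDHA flox cells. In NAMPT flox cells it went from 202 and 204 to 67.7 and 60.8 CPM. Among wild-type libraries of set 2, 2 went against their labels. The library labelled FX11 had 2016 CPM of Mmp3, 12540 CPM of Lcn2 and 15.0 CPM of Il6, genes that IL-1β induces, while the library labelled IL-1β had 0.784, 17.2 and 0 CPM. Wild-type results are therefore given set by set.

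The 10 genes, chondrocyte markers themselves, were abundant in every library. With GFP virus alone they held 7.57% ± 0.702 (SD, n = 6) of all counts, and Col2a1 was the highest of them per kilobase of exon in all 16 groups. In LDHA flox GFP libraries the mean level was 8842 CPM per kilobase for Col2a1, 871 for Acan, 805 for Col11a1, 428 for Col9a1, 386 for Col9a2, 385 for Col9a3, 366 for Comp, 146 for Hapln1, 86.8 for Matn3 and 31.0 for Matn1. Neighbours whose libraries overlapped in this order were Acan and Col11a1, Col9a2 and Col9a3, and Col9a3 and Comp, while the others were apart in both libraries. Matn1 was the lowest of the 10 in the GFP groups of all 3 floxed lines. Per kilobase the NFKBIZ flox GFP libraries stood above those of the other floxed lines for all 10 genes, for example at 1412 against 871 and 821 for Acan. All libraries of this line are from set 2. Within set 2 both of its GFP libraries lay above the GFP libraries of LDHA flox and NAMPT flox for 10 of the 10 genes, for example at 9190 and 11580 against 6047 and 5952 CPM of Acan. The share of all genes with that order was not computed. Fibroblast or perichondrium markers, 7 genes including Col1a1, Col3a1 and Postn, summed to 890 to 1360 CPM in NFKBIZ flox libraries, 2336 to 5110 CPM in NAMPT flox, 2743 to 5960 CPM in LDHA flox and 4597 to 10100 CPM in wild type, with none of the 7 at 0 in any group, and their part in the differences between lines was not tested. In bulk RNA, fewer cells of a type and less RNA per cell cannot be told apart.

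IL-1β lowered all 10 genes in GFP-infected chondrocytes. Averaged over the 3 floxed lines, 10 of 10 were lower and none higher, against 23.6% of 16727 genes tested called lower, and their median log2 fold change was -1.40 where that of all genes was 0.02. For each of the 10 genes the lowest of the 6 GFP libraries lay above the highest of the 6 GFP + IL-1β libraries. The share of all genes separated in this way was not computed. Together the 10 genes fell from 7.57% ± 0.702 to 2.95% ± 0.213 of all counts (SD, n = 6 each), a difference of -4.61 percentage points, with a two-sided exact permutation p of 0.00926 within lines, the smallest that 216 arrangements allow. The same count of 10 lower genes was found in each line alone, against 13.3% of genes called lower in LDHA flox, 17.3% in NAMPT flox and 11.7% in NFKBIZ flox. Of the edgeR F tests of a difference between lines in this response, 0 of the 10 passed, where 2.01% of all genes did. At an unadjusted p under 0.05 it held 1 of the 10, Matn3, against 11.9% of all genes. Summed markers of other cell types or states moved with IL-1β too. In the GFP libraries of the 3 lines, 4 hypertrophic chondrocyte markers went from 205 to 716 CPM down to 57.6 to 153 CPM, 4 osteoblast markers from 12.6 to 34.9 down to 5.36 to 20.6 CPM and the fibroblast or perichondrium markers from 1151 to 5960 down to 1010 to 4640 CPM, and 6 leukocyte markers went from 12.9 to 23.7 up to 23.2 to 50.2 CPM. None of them was at 0 in any group, and their part in the result was not tested.

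**Figure D1:**
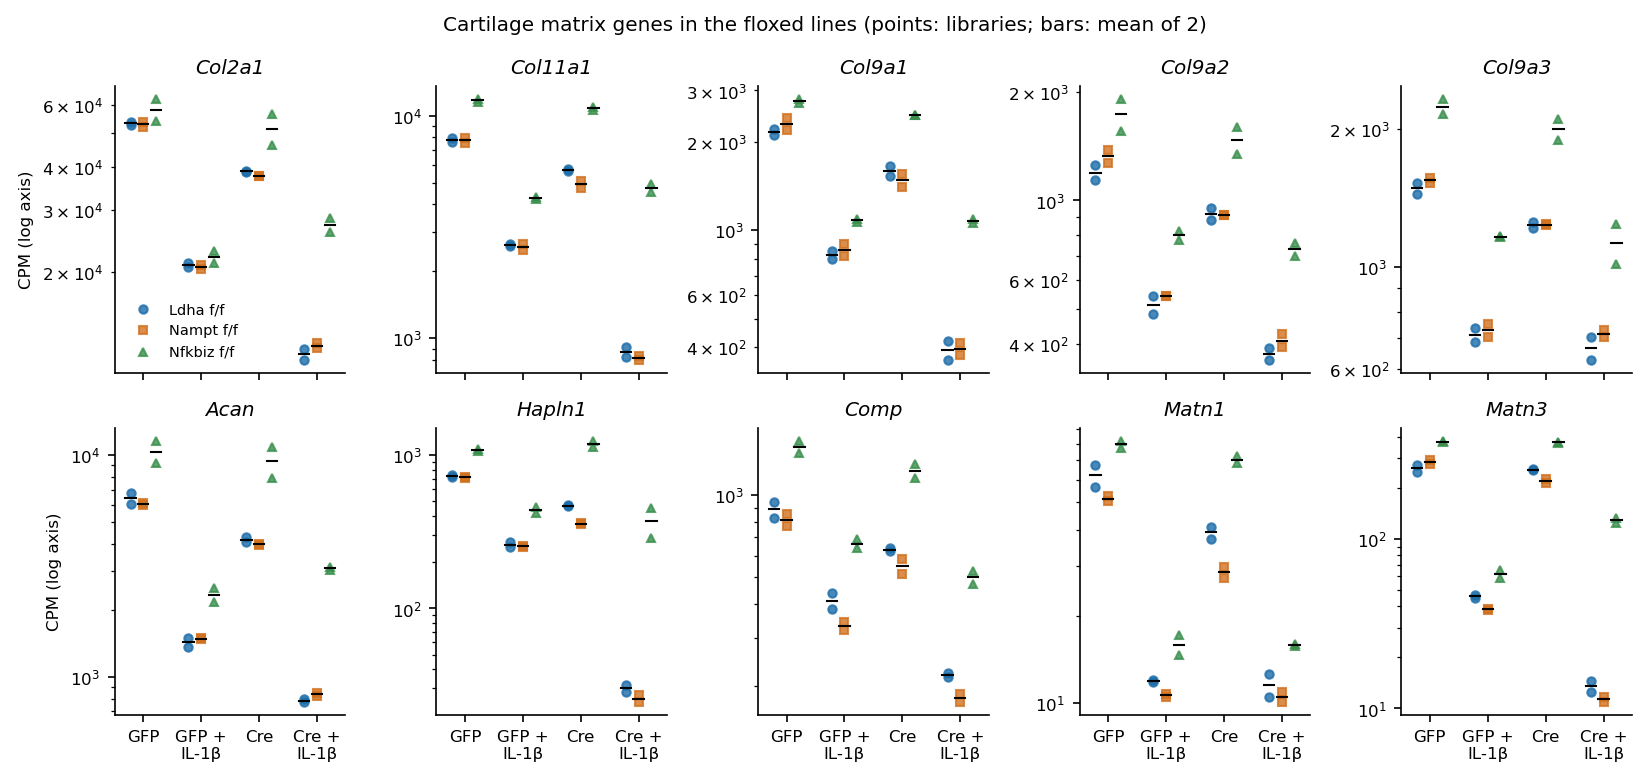
CPM (log axis) of each of the 10 genes in the 24 libraries of the floxed lines, with 1 point per library, a bar at the mean of 2, and colours and symbols for the line. GFP + IL-1β libraries lie below GFP libraries for all 10 genes, and in LDHA flox and NAMPT flox cells Hapln1, Matn3 and Col11a1 fall further with Cre + IL-1β, to 24.5 to 31.5 CPM in the case of Hapln1.

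Col2a1, a fibrillar collagen gene, was the most abundant of the 10. Per kilobase, the mean of Col11a1 was below that of Acan in the GFP group of each floxed line, with overlapping libraries in LDHA flox and NAMPT flox. Col2a1 measured 52470 and 53650 CPM in LDHA flox GFP libraries, 51870 and 53670 in NAMPT flox and 54010 and 62290 in NFKBIZ flox. With IL-1β it measured 20630 and 21230, 20890 and 20440, and 22980 and 21200 CPM in the same order. The 6 libraries without IL-1β all lay far above the 6 with it, and the average log2 fold change was -1.35 (SE 0.05, adjusted p = 1.58e-14). Col11a1 went from 7507 to 11870 CPM (median 7952) to 2483 to 4308 CPM (median 2657), with a log2 fold change of -1.52 (SE 0.05, adjusted p = 9.62e-17). The higher end of both ranges came from NFKBIZ flox libraries.

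The 3 chains of type IX collagen fell to differing degrees. Col9a1 went from 2120 to 2805 CPM down to 796 to 1096 CPM, Col9a2 from 1137 to 1912 down to 485 to 824 CPM, and Col9a3 from 1440 to 2321 down to 687 to 1166 CPM. Their log2 fold changes were -1.38 (SE 0.05), -1.19 (SE 0.06) and -1.01 (SE 0.05), and Col9a3 had the smallest change of the 10.

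Aggrecan had a larger fold change than its link protein. Acan measured 6769 and 6047 CPM in LDHA flox GFP libraries, 6122 and 5952 in NAMPT flox and 9190 and 11580 in NFKBIZ flox, and with IL-1β 1494 and 1370, 1480 and 1503, and 2531 and 2181 CPM. Its log2 fold change was -2.09 (SE 0.07, adjusted p = 1.62e-15), so that 22.4% of its level was left in LDHA flox, 24.7% in NAMPT flox and 22.7% in NFKBIZ flox cells. Hapln1 measured 750 and 727, 726 and 710, and 1106 and 1066 CPM without IL-1β and 273 and 251, 254 and 255, and 460 and 423 CPM with it. Its log2 fold change was -1.41 (SE 0.07, adjusted p = 1.50e-12), and 35.4% to 40.7% was left.

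Of the adaptors, both matrilins had larger fold changes than any of the collagen genes and Comp did not. Matn3 measured 249 and 274 CPM in LDHA flox, 275 and 290 in NAMPT flox and 376 and 373 in NFKBIZ flox GFP libraries, and with IL-1β 45.1 and 46.6, 38.0 and 38.7, and 65.7 and 58.4 CPM. At -2.65 (SE 0.05, adjusted p = 3.87e-20) its log2 fold change was the largest of the 10, and it ranked 20 of 16727 genes by p. Matn1 went from 50.6 to 81.7 CPM down to 10.5 to 17.2 CPM, a log2 fold change of -2.31 (SE 0.06, adjusted p = 3.27e-17). Comp went from 770 to 1578 CPM down to 321 to 689 CPM, a log2 fold change of -1.18 (SE 0.06).

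**Figure D2:**
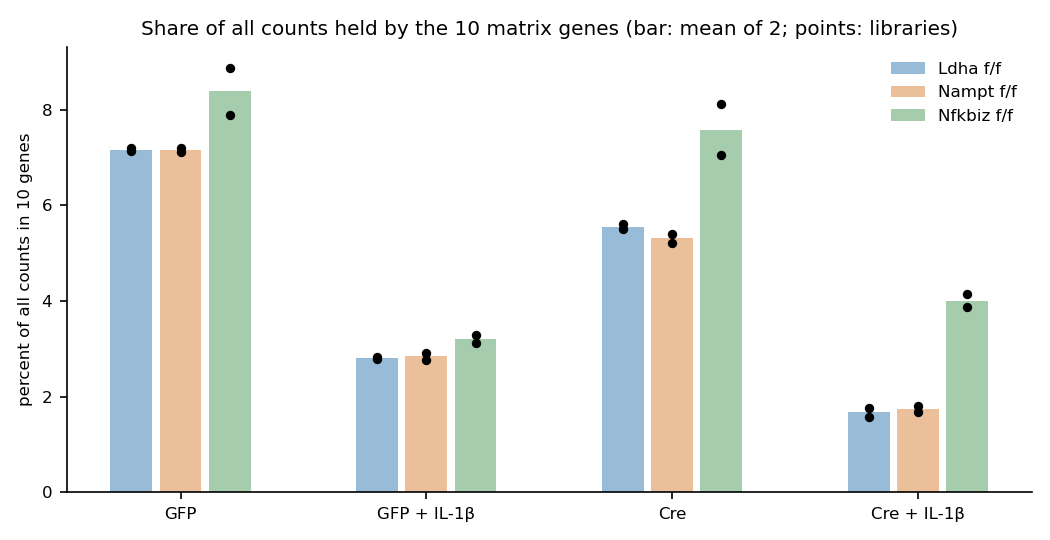
Percent of all counts held by the 10 genes, by group and line, with bars at the mean of 2 libraries and 1 point per library. GFP libraries lie between 7.11% and 8.87% and GFP + IL-1β libraries between 2.78% and 3.3%, and Cre + IL-1β libraries lie lower in LDHA flox and NAMPT flox and higher in NFKBIZ flox.

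Cre without IL-1β lowered the matrix genes mildly in the LDHA flox and NAMPT flox lines. In LDHA flox cells 8 of the 10 were lower, against 2.09% of genes called lower, and in NAMPT flox cells 10 of the 10 were, against 6.07%. In NFKBIZ flox cells 0 of the 10 were called, against 0.260% of genes called in either direction, with 1 of the 10 at an unadjusted p under 0.05, against 5.93% of all genes, and 0 of the 10 called by DESeq2 and by limma. The median log2 fold change of the 10 was -0.47 in LDHA flox, -0.59 in NAMPT flox and -0.17 in NFKBIZ flox cells. Over all genes it was -0.02, -0.02 and -0.002 in that order. For each of the 10 the SE was wider in NFKBIZ flox than in NAMPT flox cells. That of Acan was 0.16 against 0.05 and that of Col2a1 0.14 against 0.03. The 2 libraries of LDHA flox Cre decided part of the count of 8 in that line. Without its set 1 library 3 of the 10 were called and without its set 2 library 4 were, and Col9a2 lost its call in 7 of the 8 fits that left out 1 library of the line. From GFP to Cre libraries the hypertrophic markers went from 567 to 668 down to 359 to 386 CPM in LDHA flox and from 614 to 716 down to 348 to 398 CPM in NAMPT flox, and 4 endothelial markers from 3.27 to 3.497 up to 10.1 to 11.0 and from 3.55 to 4.26 up to 13.9 to 14.0 CPM, and their part in these values was not tested.

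Acan measured 4264 and 4081 CPM in LDHA flox Cre libraries and 3953 and 3979 in NAMPT flox, 65.1% and 65.7% of the GFP means, with log2 fold changes of -0.64 (SE 0.08, adjusted p = 0.00153) and -0.61 (SE 0.05, adjusted p = 1.35e-05). Col2a1 measured 38610 and 38900 and then 37640 and 37550 CPM, log2 fold changes of -0.47 (SE 0.06) and -0.50 (SE 0.03). In both lines all Cre libraries lay below all GFP libraries for these genes, and the share of all genes so separated was not computed.

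Hapln1 was at 472 and 467 CPM in LDHA flox Cre libraries and at 358 and 359 CPM in NAMPT flox, log2 fold changes of -0.67 (SE 0.07, adjusted p = 9.59e-04) and -1.01 (SE 0.06, adjusted p = 2.54e-06). In NFKBIZ flox Cre libraries it was at 1131 and 1238 CPM, above both GFP libraries. The effect of Cre on Hapln1 differed between the 3 lines (adjusted p = 0.00258 in the edgeR F test), as did that on Col11a1 (0.0218) and Matn1 (0.0239), and these 3 of 10 stand against 2.45% of all genes. A fit to library set 2 alone takes its spread between libraries from NFKBIZ flox, the only line with replicated groups there. Without the first NAMPT flox GFP, either NFKBIZ flox GFP or the first NFKBIZ flox Cre library, 1 of the 10 passed, and with set 2 alone 0 did, where 53 of 16539 genes passed.

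The genes that moved least without IL-1β were Col9a3 and Matn3. Col9a3 had a log2 fold change of -0.28 in LDHA flox cells (SE 0.08, adjusted p = 0.0943, and 0.00725 with the library set as a block) and of -0.33 in NAMPT flox cells (SE 0.05, adjusted p = 0.00226). Matn3 was at 258 and 255 CPM in LDHA flox Cre libraries, within the range of the GFP libraries, with a log2 fold change of -0.05 (SE 0.08, adjusted p = 0.854), and at 214 and 224 CPM in NAMPT flox cells, with -0.38 (SE 0.06, adjusted p = 0.00223).

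**Figure D3:**
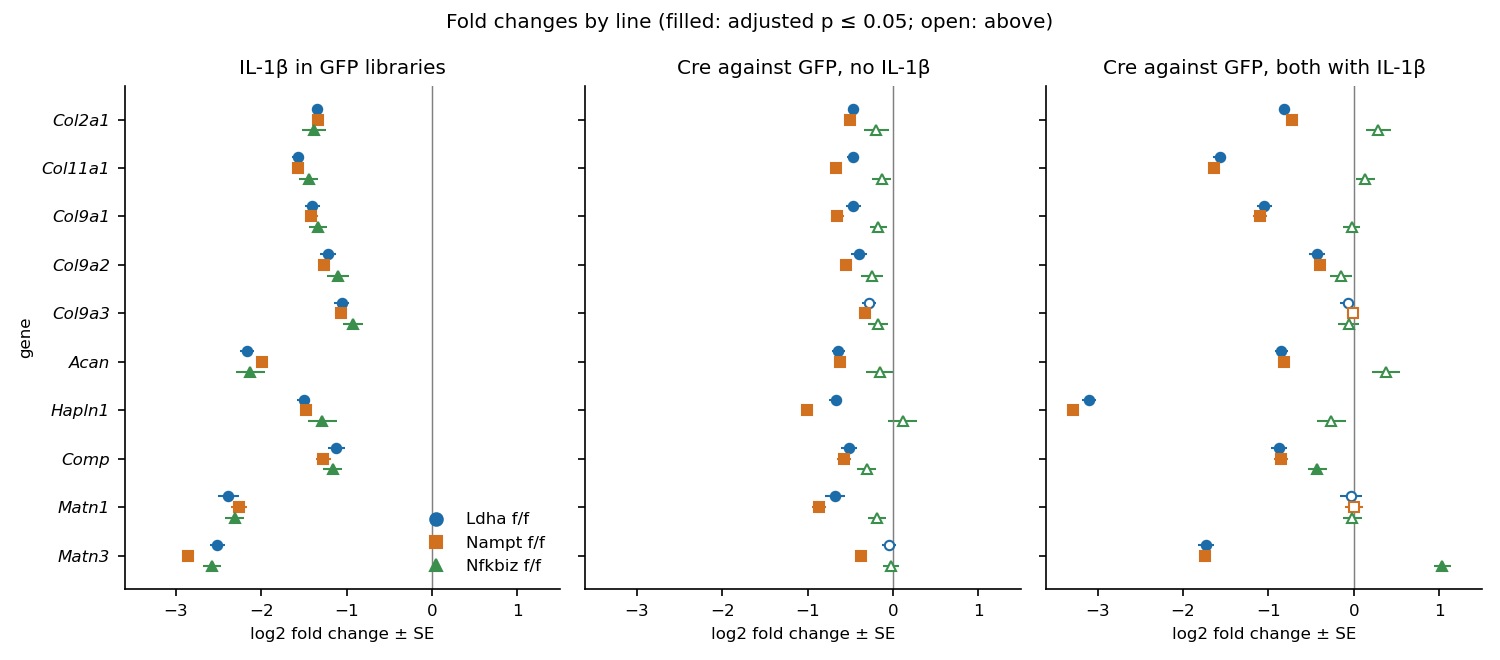
Log2 fold changes (x axis, ± SE) of the 10 genes (y axis) by line, for IL-1β in GFP libraries, for Cre against GFP without IL-1β and for Cre against GFP with IL-1β in both, with filled symbols where the adjusted p was 0.05 or less. The 3 lines lie close together in the IL-1β panel, and with IL-1β the LDHA flox and NAMPT flox lines reach -3.10 and -3.28 for Hapln1 while Matn3 is at 1.03 in NFKBIZ flox.

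With IL-1β in both, the difference between Cre and GFP libraries varied from gene to gene. In LDHA flox cells 8 of the 10 were lower in Cre + IL-1β than in GFP + IL-1β libraries, against 17.0% of genes called lower, and in NAMPT flox cells 8 of the 10 were, against 23.4%. Matn1 and Col9a3 were the exceptions in both lines. Hapln1, Matn3 and Col11a1 fell furthest.

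Hapln1 measured 28.5 and 31.5 CPM in LDHA flox Cre + IL-1β libraries and 27.1 and 24.5 CPM in NAMPT flox. That was 11.5% and 10.1% of the GFP + IL-1β means and 4.07% and 3.59% of the GFP means. The log2 fold changes against GFP + IL-1β were -3.10 (SE 0.08, adjusted p = 2.12e-08) and -3.28 (SE 0.07, adjusted p = 2.97e-10), and Hapln1 ranked 6 by p among all genes tested in each line.

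Matn3 measured 14.5 and 12.5 CPM in LDHA flox Cre + IL-1β libraries and 10.9 and 11.7 CPM in NAMPT flox, 29.5% of the GFP + IL-1β mean in each. Its log2 fold changes were -1.73 (SE 0.09, adjusted p = 8.97e-07) and -1.75 (SE 0.07, adjusted p = 2.00e-08). Col11a1 measured 914 and 827 and then 837 and 802 CPM, 33.1% and 31.9% of the GFP + IL-1β means, with log2 fold changes of -1.57 (SE 0.07, adjusted p = 3.06e-07) and -1.63 (SE 0.06, adjusted p = 6.20e-09). For all 3 genes every Cre + IL-1β library of these lines lay below every GFP + IL-1β library. These 3 were the ones that fell furthest, and the share of all genes separated in this way was not computed.

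Acan, Col2a1, Comp, Col9a1 and Col9a2 fell as well, by smaller factors. Acan was at 772 and 795 CPM in LDHA flox and 822 and 849 CPM in NAMPT flox Cre + IL-1β libraries, 12.2% and 13.8% of the GFP means, with log2 fold changes against GFP + IL-1β of -0.85 (SE 0.08) and -0.82 (SE 0.05). Col2a1 changed by -0.82 (SE 0.06) and -0.73 (SE 0.04), Comp by -0.88 (SE 0.10) and -0.86 (SE 0.08), and Col9a1 by -1.05 (SE 0.09) and -1.10 (SE 0.08) on the log2 scale. Col9a2 changed by -0.43 (SE 0.09) and -0.40 (SE 0.07).

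Matn1, which IL-1β alone had brought to 12.0 and 11.8 CPM in LDHA flox and 10.7 and 10.5 CPM in NAMPT flox cells, was at 10.4 and 12.6 and at 10.9 and 10.1 CPM with Cre + IL-1β. Its log2 fold changes were -0.03 (SE 0.13, adjusted p = 0.873) and 0.00 (SE 0.10, adjusted p = 0.991), and the libraries of the groups overlapped. Col9a3 was at 704 and 629 CPM in LDHA flox and 729 and 705 CPM in NAMPT flox cells, with log2 fold changes of -0.07 (SE 0.08, adjusted p = 0.544) and -0.01 (SE 0.05, adjusted p = 0.946). The fibroblast or perichondrium markers moved in these groups too, from 4492 to 4640 CPM in GFP + IL-1β to 2743 to 2779 CPM in Cre + IL-1β libraries of LDHA flox cells and from 3930 to 3975 to 2336 to 2358 CPM in NAMPT flox cells. Endothelial markers went from 4.74 to 5.27 up to 16.8 to 21.1 CPM in LDHA flox and from 6.85 to 7.37 up to 22.9 to 26.3 CPM in NAMPT flox cells. Osteoblast markers went from 20.2 to 20.6 CPM down to 9.36 to 11.2 CPM and from 12.5 CPM down to 7.98 to 8.59 CPM, and hypertrophic markers from 140 to 147 down to 94.0 to 102 CPM and from 143 to 153 down to 120 to 133 CPM. The part of these markers in the values of the 10 genes was not tested.

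The interaction of Cre with IL-1β, which asks whether the Cre effect differs with and without the cytokine, was called for 6 of the 10 genes in LDHA flox cells, against 11.5% of all genes, and for 7 of the 10 in NAMPT flox cells, against 22.0%. It was negative, meaning a larger fall under IL-1β, for Hapln1 at -2.43 (SE 0.11) and -2.27 (SE 0.09), Matn3 at -1.69 (SE 0.12) and -1.37 (SE 0.10), Col11a1 at -1.10 (SE 0.10) and -0.97 (SE 0.08), Col9a1 at -0.59 (SE 0.12) and -0.45 (SE 0.11) and Col2a1 at -0.35 (SE 0.08) and -0.23 (SE 0.05). It was positive for Matn1 at 0.65 (SE 0.17) and 0.87 (SE 0.13), and for Col9a3 at 0.32 (SE 0.08) in NAMPT flox cells. Some of these calls depended on the fit. Matn1 in LDHA flox cells was not called with limma (adjusted p = 0.0657), with filterByExpr (0.0614) or in 7 of the 8 fits that left out 1 library (up to 0.183), and Col9a3 in NAMPT flox cells was not called with 24 floxed libraries in 1 model (0.153) or in 4 of the 8 (up to 0.110). Col2a1 was not called with 24 libraries in 1 model in either line (0.0534 and 0.163), nor in 4 of the 8 fits in LDHA flox cells (up to 0.0794), and Col9a1 was not in 1 and 2 of the 8. Hapln1, Matn3 and Col11a1 in both lines and Matn1 in NAMPT flox cells were called in all of these. Hapln1 ranked 3 by p among all genes in both lines. With the library set as a block, 7 and 10 of the 10 genes were called, Comp being added in LDHA flox cells (-0.37, adjusted p = 0.115 without and 0.00427 with the block) and Acan (-0.20, 0.0508 and 5.0e-05), Comp (-0.28, 0.109 and 4.8e-05) and Col9a2 (0.15, 0.273 and 0.0313) in NAMPT flox cells. The block also raised the number of all genes called, from 1825 to 3374 in LDHA flox and from 3552 to 5648 in NAMPT flox cells. Without the set 1 library of LDHA flox Cre, 3 of the 10 were called in place of 6.

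With Cre under IL-1β in NFKBIZ flox cells, 1 of the 10 genes, Matn3, was higher and 1, Comp, lower. These 2 of 10 stand beside 17.4% of all genes called in either direction. With no filter on low counts 4 of the 10 were called, where 3235 of 27745 genes were. With 24 libraries in 1 model 4 of the 10 were called as well, and the count over all genes in that fit is not given here. Matn3 measured 133 and 124 CPM in Cre + IL-1β libraries, above the 65.7 and 58.4 CPM of GFP + IL-1β and below the 376 and 373 CPM of GFP libraries. The log2 fold change was 1.03 (SE 0.10, adjusted p = 1.44e-05) and the interaction 1.06 (SE 0.14, adjusted p = 6.15e-04), the only interaction called among the 10 in this line, against 5.19% of all genes.

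Comp was lower, at 473 and 527 CPM against 689 and 641 CPM, with a log2 fold change of -0.43 (SE 0.11, adjusted p = 0.0196), which rose to 0.190 without the first and 0.0889 without the second GFP + IL-1β library. Acan measured 3044 and 3133 CPM in Cre + IL-1β against 2531 and 2181 CPM in GFP + IL-1β libraries, and Col2a1 measured 26090 and 28470 against 22980 and 21200 CPM. The libraries of both genes did not overlap, though the share of all genes so separated was not computed. Their log2 fold changes of 0.37 (SE 0.16, adjusted p = 0.149) and 0.29 (SE 0.14, adjusted p = 0.202) did not pass. Their interactions of 0.53 (SE 0.23, adjusted p = 0.263) and 0.48 (SE 0.20, adjusted p = 0.236) did not pass either. With all 24 floxed libraries in 1 model the changes of Acan (adjusted p = 0.0260) and Col2a1 (0.0214) under IL-1β were called. Hapln1 was at 456 and 289 CPM, its widest spread among the floxed groups, and the log2 fold change of -0.26 (SE 0.17, adjusted p = 0.324) became -0.63 (adjusted p = 0.00112) without the first Cre + IL-1β library, as the interaction of -0.38 (adjusted p = 0.461) became -0.75 (adjusted p = 0.00393). The 10 genes together held 3.88% and 4.14% of all counts in Cre + IL-1β libraries against 3.12% and 3.3% in GFP + IL-1β, where LDHA flox went from 2.78% and 2.82% to 1.58% and 1.77%.

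The Cre effect under IL-1β differed between the 3 lines for 7 of the 10 genes in the edgeR F test, against 28.6% of all genes. These were Matn3 (adjusted p = 3.34e-13), Col11a1 (8.19e-11), Hapln1 (1.05e-10), Col9a1 (5.39e-07), Col2a1 (9.27e-07), Acan (8.57e-06) and Comp (0.0186). Col9a2 (0.178), Col9a3 (0.942) and Matn1 (0.971) did not pass. In library set 2 only the NFKBIZ flox groups are replicated, so a fit to that set takes its spread between libraries from this line alone. Within library set 2 alone, which holds libraries of all 3 lines, 6 of the 10 passed, where 2333 of 16539 genes did, and Comp (0.122) was the one lost.

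Within a library, the ratio between partners changed along with the levels. Per kilobase, Col9a1 stood to Col9a3 at 1.17 and 1.06 in LDHA flox GFP libraries and at 1.21 and 1.07 in NAMPT flox, and at 0.453 and 0.438 and at 0.432 and 0.405 in Cre + IL-1β libraries. In NFKBIZ flox cells the ratio went from 0.963 and 0.919 to 0.792 and 0.671. With IL-1β alone the ratio was 0.940 and 0.820 in LDHA flox, 0.907 and 0.878 in NAMPT flox and 0.697 and 0.716 in NFKBIZ flox cells. The ratio of the Col9a1 to the Col9a3 transcript was thus lowest with Cre + IL-1β in the first pair of lines.

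Col11a1 stood to Col11a2, which encodes another chain of type XI collagen and is not among the 10, at 1.33 and 1.39 in LDHA flox GFP and at 0.590 and 0.625 in Cre + IL-1β libraries. IL-1β or Cre alone left the ratio in that line at 1.30 to 1.38. In NAMPT flox cells it was 1.41 and 1.39 in GFP, 1.28 and 1.35 with IL-1β alone, 1.22 and 1.255 with Cre alone and 0.543 and 0.556 with both. In NFKBIZ flox cells it was 2.13 and 1.78 in GFP and 2.13 and 1.80 in Cre + IL-1β libraries. Hapln1 stood to Acan at 0.161 and 0.175 in LDHA flox GFP, at 0.265 and 0.266 in GFP + IL-1β and at 0.0538 and 0.0576 in Cre + IL-1β libraries. In NAMPT flox cells these values were 0.173 and 0.174, then 0.250 and 0.247, then 0.0480 and 0.0420. For NFKBIZ flox cells they were 0.175 and 0.134, then 0.265 and 0.282, then 0.218 and 0.134. The ratio of link protein to aggrecan transcripts was thus higher with IL-1β alone in every line, and with Cre + IL-1β it was below that of GFP libraries in LDHA flox and NAMPT flox cells and overlapped it in NFKBIZ flox cells. Matn3 stood to Matn1 at 2.93 and 2.69 in LDHA flox GFP libraries, at 4.59 and 4.11 with Cre alone, at 0.925 and 0.661 with Cre + IL-1β, and at 5.61 and 5.15 in NFKBIZ flox Cre + IL-1β libraries.

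**Figure D4:**
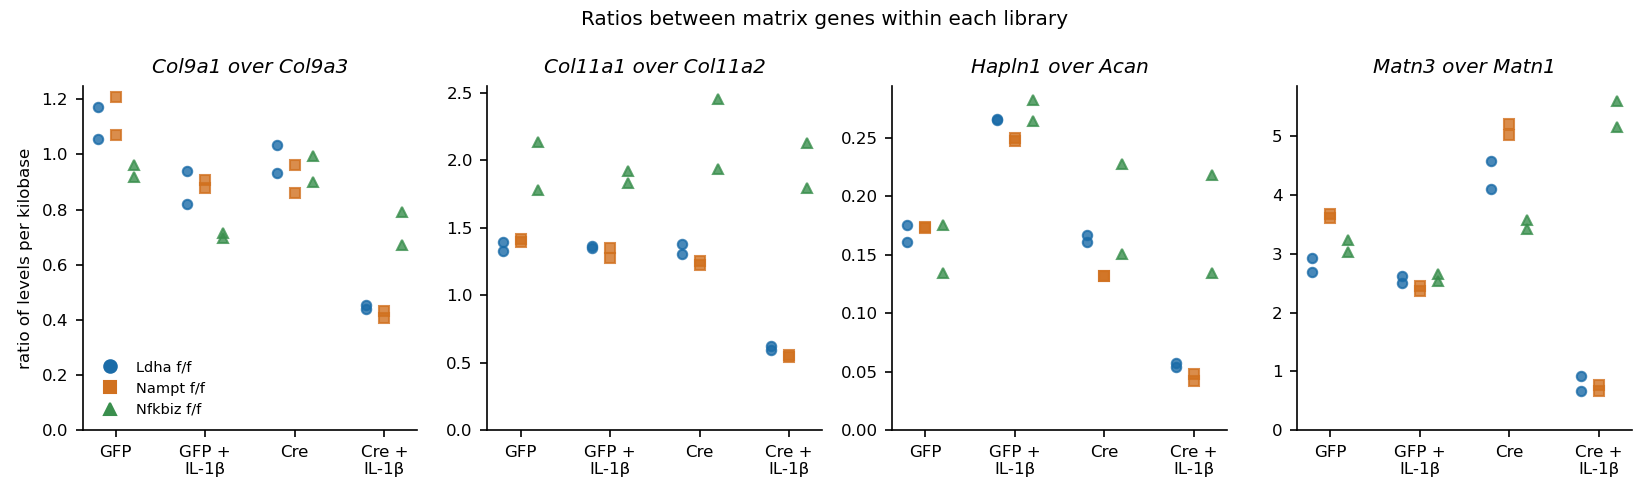
Ratios of levels per kilobase between pairs of matrix genes within each library of the floxed lines, by group, with 1 point per library. In LDHA flox and NAMPT flox Cre + IL-1β libraries all 4 ratios are at their lowest, for example 0.405 to 0.453 for Col9a1 over Col9a3, and NFKBIZ flox libraries stay higher.

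FX11 was compared in wild-type cells, where the libraries of a group differ too much for a call. Of 15461 genes tested, 0 were called in each of the comparisons IL-1β, FX11, IL-1β and FX11 against untreated, and FX11 on top of IL-1β (0% of all genes in each), with 153, 68, 860 and 102 genes and 2, 0, 6 and 1 of the 10 at an unadjusted p under 0.05. DESeq2 called 6, 2, 153 and 1 genes, among them Hapln1, Matn3 and Col2a1, 3 of the 10, for IL-1β and FX11 against untreated. The biological coefficient of variation was 42.6% in wild type and 10.4% to 12.3% in the floxed lines.

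In set 1, Acan was at 10670 CPM untreated, 8441 with FX11, 1386 with IL-1β and 1292 with both. The other 9 genes had the same order, with 58.0% to 96.5% of the untreated level left with FX11 alone over the 10 genes, 5.87% to 48.9% with IL-1β and 4.08% to 41.4% with both. In set 2, Acan was at 15520 CPM untreated, 3970 where the label is FX11, 10870 where it is IL-1β and 2784 where it is both. There the 10 genes were at 23.0% to 54.9% of the untreated level under the label FX11, at 42.3% to 84.5% under IL-1β and at 6.00% to 48.7% under both. In both sets the library labelled IL-1β and FX11 was the lowest for each of the 10 genes. Between the sets, Matn1 was at 78.1 CPM untreated in set 1 and at 1104 CPM in set 2, and no other gene of the 10 differed as much. Skeletal muscle markers summed to 18.8 to 206 CPM and leukocyte markers to 83.0 to 226 CPM over the wild-type libraries, against 15.1 to 20.1 and 16.9 to 30.8 CPM in LDHA flox, and their part in this spread was not tested.

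**Figure D5:**
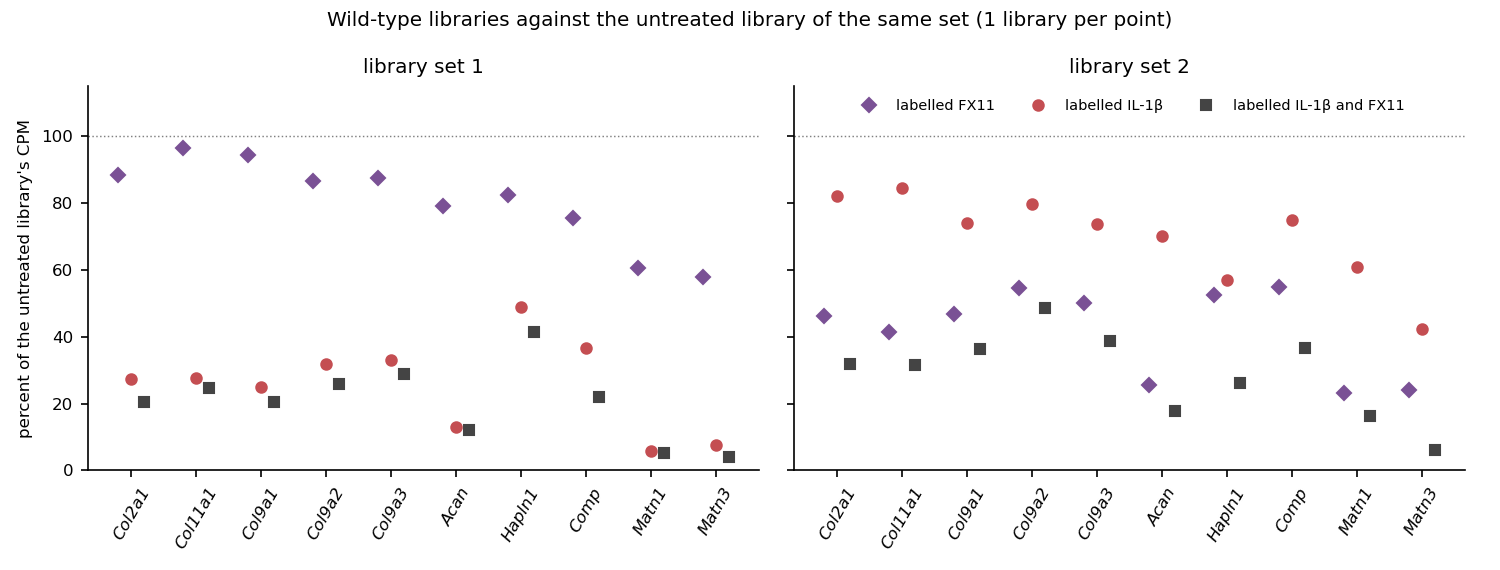
Percent of the untreated wild-type library's CPM left for each of the 10 genes, by library set, with 1 library per point. In set 1 the FX11 points lie at 58.0% to 96.5% and the IL-1β points at 5.87% to 48.9%, and in set 2 the points labelled IL-1β lie above those labelled FX11 for all 10 genes.

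Of the transcription factors known to drive the 10 genes, Sox9 and Sox6 were lower with IL-1β in GFP libraries, at -0.85 (SE 0.06) and -0.80 (SE 0.05) on the log2 scale averaged over lines, and the average for Sox5 was 0.05 (SE 0.05, adjusted p = 0.456). Sox5 moved in opposite directions by line, with 0.38 (adjusted p = 0.00981) in NAMPT flox and -0.36 (0.0116) in NFKBIZ flox, both called, and 0.11 (0.342) in LDHA flox cells. With Cre under IL-1β, Sox5 changed by -1.70 and -2.15 and Sox6 by -1.55 and -2.02 in LDHA flox and NAMPT flox cells, with called interactions of -1.31 and -1.49 for Sox5 and -1.10 and -1.47 for Sox6. Sox9 changed by -0.25 in LDHA flox and was not called in NAMPT flox, at -0.08. In NFKBIZ flox cells none of the 3 was called. Over a list of 14 chondrocyte transcription factors, 3 were higher and 6 lower with IL-1β in GFP libraries, among them Nkx3-2 at -1.66 and Hif1a at 0.44, where 25.9% of all genes were called higher and 23.6% lower. With Cre under IL-1β 2 were higher and 10 lower in LDHA flox, 3 higher and 9 lower of 13 tested in NAMPT flox, and 2 higher and 3 lower in NFKBIZ flox cells. Of all genes 16.9% were called higher and 17.0% lower in that comparison in LDHA flox, 25.0% and 23.4% in NAMPT flox and 8.16% and 9.20% in NFKBIZ flox cells.

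Other cartilage matrix genes followed the 10 in part. Of 35 listed, 21 were lower and 8 higher with IL-1β in GFP libraries, with a median log2 fold change of -0.49, against the same 23.6% and 25.9% of all genes and their median of 0.02. Cnmd, which encodes chondromodulin, was at -2.12, Col27a1, a fibrillar collagen gene, at -1.93 and Col10a1, a marker of hypertrophic chondrocytes, at -2.01, while Prg4, which encodes lubricin, was at 3.09 and Vcan, a large proteoglycan gene, at 1.15. With Cre under IL-1β 25 of the 35 were lower and 1 higher in LDHA flox (17.0% and 16.9% of all genes), 25 lower and 3 higher in NAMPT flox (23.4% and 25.0%), and 9 lower and 5 higher in NFKBIZ flox cells (9.20% and 8.16%).

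Among 30 genes of collagen folding, modification and crosslinking, 20 were lower and 5 higher with IL-1β in GFP libraries, where 23.6% of all genes were lower and 25.9% higher. With Cre under IL-1β 13 were lower and 5 higher in LDHA flox, against 17.0% and 16.9% of all genes. In NAMPT flox 11 were lower and 8 higher, against 23.4% and 25.0%. In NFKBIZ flox cells 7 were lower and 7 higher, against 9.20% and 8.16%. With IL-1β in GFP libraries, averaged over lines, Colgalt2, a collagen galactosyltransferase gene, was at -2.38 and Lox, which encodes lysyl oxidase, at 1.61. Among 24 tested genes for matrix proteases and their inhibitors, 14 were higher and 4 lower with IL-1β in GFP libraries, against 25.9% and 23.6% of all genes. Mmp3, which encodes stromelysin-1, was at 10.06 and Mmp13, a collagenase gene, at 2.67, while Timp3, an inhibitor of the proteases that cleave aggrecan, was at -1.58. With Cre under IL-1β Mmp13 changed by -2.21, -2.45 and -1.52 in LDHA flox, NAMPT flox and NFKBIZ flox cells, and Mmp3 by -2.37, -2.48 and -2.69, so that in the first pair of lines Mmp13, Mmp3 and 8 of the 10 matrix genes were all lower. Over the whole protease list 11 were higher and 8 lower of 24 in LDHA flox, against 16.9% and 17.0% of all genes. In NAMPT flox 12 were higher and 9 lower of 23, against 25.0% and 23.4%. In NFKBIZ flox cells 3 were higher and 12 lower of 23, against 8.16% and 9.20%.

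The genes whose log2 CPM over the 24 floxed libraries was most like the mean of the 10 were Fry (Pearson r = 0.994), Cnmd (0.994), Wwp2 (0.993), the pseudogene Itih5l-ps (0.992) and Meltf (0.992), out of 9164 genes with a mean of at least 10 CPM. Among the 10 themselves r ran from 0.925 for Matn1 to 0.994 for Col9a1, with the mean including the gene itself. Between pairs of the 10, r was lowest for Hapln1 and Matn1 (0.776). The libraries share groups and the IL-1β response, so these values describe a shared pattern over 12 groups and carry no test.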

How the data were processed

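RNA was depleted of ribosomal RNA (KAPA Ribo-Erase) and sequenced. Per the labels, reads were aligned with STAR 2.0.4b to GRCm38 and counted with featureCounts 1.45, and the study's methods give other versions of both. The authors deposited, for each library, counts that are not normalized, CPM, which matched each count over its file's sum in 32 of 32 files, and RPKM, which is that CPM per kilobase of gene in 32 of 32. The deposited CPM and RPKM entered no test. Library totals were 15830658 to 39959888 counts, and every library held more than the floor of 3 counts for each of the 10 genes, the lowest being 164 counts of Matn1, 249 of Matn3 and 587 of Hapln1.

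Levels are CPM with TMM factors over all 32 libraries, divided by exon length in kilobases where genes are compared. Symbols came from GENCODE M21, which named 40254 of 41388 genes. Genes over 1 CPM in at least 1 library were tested, without 355 ribosomal RNA genes. edgeR 4.0.16 (quasi-likelihood, two-sided, Benjamini-Hochberg over all genes) was fitted over the 8 libraries of a line, and over the 24 floxed libraries for comparisons across lines. The design assumed counts, which the files hold. Deviations from group means correlated between libraries of the same set in LDHA flox (r = 0.384 to 0.739 over 6 pairs of groups) and NAMPT flox cells (0.504 to 0.669), so the title numbering pairs them, and in wild type not in every pair (-0.225 to 0.724). All 10 genes passed the filter in every fit. The scripts were tested on simulated counts in which 200 genes changed by a factor of 2. Of these, 190 were recovered for IL-1β within 1 line and 200 for IL-1β averaged over lines. The Cre by IL-1β interaction recovered 111, the difference between lines 123 and FX11 in wild type 0. Changes of this size can thus go uncalled in such comparisons. R 4.3.3, limma 3.58.1, DESeq2 1.42.0, Python 3.11.15 and matplotlib 3.10.9 were used. Alternatives were DESeq2, limma's voomWithQualityWeights, RLE factors, no filter, filterByExpr, the 10 genes and Gm26917 left out of the totals, the library set as a block, other sets of libraries, and each library left out.

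The 10 genes and 4 gene lists were chosen with earlier results of these data known. Named beside them are the deleted genes, Sox5, Sox6 and Sox9, up to 3 lower and 3 higher genes of each list by adjusted p with IL-1β in GFP libraries, of which a part is shown, and the 5 genes most alike. Il6, Lcn2, Col11a2 and Mmp3 as a check of labels were chosen after their values were seen.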

Additional observations from a re-analysis of the deposited data

Results flagged for a closer look

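The effect of Cre on a matrix gene differed with and without IL-1β in the edgeR interaction test. In LDHA flox cells the log2 interactions were -2.43 for Hapln1, -1.69 for Matn3, -1.10 for Col11a1, -0.589 for Col9a1, -0.351 for Col2a1 and 0.645 for Matn1. In NAMPT flox cells they were -2.27 for Hapln1, -1.37 for Matn3, -0.971 for Col11a1, -0.446 for Col9a1, -0.228 for Col2a1, 0.867 for Matn1 and 0.325 for Col9a3. In NFKBIZ flox cells that of Matn3 was 1.06. Leaving out 1 library cost Matn1 in LDHA flox cells its call in 7 of 8 fits, Col2a1 there in 4 of 8 and Col9a3 in NAMPT flox cells in 4 of 8, and with 24 libraries in 1 model Col2a1 was called in neither line (adjusted p = 0.0534 and 0.163) and Col9a3 in NAMPT flox cells was not (0.153).

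The effect of Cre also differed between the 3 lines in the edgeR F test. Without IL-1β the adjusted p was 0.00258 for Hapln1, 0.0218 for Col11a1 and 0.0239 for Matn1. With IL-1β it was 3.34e-13 for Matn3, 8.19e-11 for Col11a1, 1.05e-10 for Hapln1, 5.39e-07 for Col9a1, 9.27e-07 for Col2a1, 8.57e-06 for Acan and 0.0186 for Comp. The NFKBIZ flox libraries are all from set 2, where only this line has replicated groups, so a fit to that set takes its spread from them. Within set 2 alone 0 of the 10 passed without IL-1β and 6 of the 10 with it, with adjusted p of 7.18e-07 for Matn3, 1.68e-05 for Hapln1, 2.92e-05 for Col11a1, 5.71e-04 for Col9a1, 0.00529 for Col2a1 and 0.0102 for Acan.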

How the results depend on the processing

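The counts of the 10 genes called were within 1.5 times of those reported in 356 of 374 alternatives, the share of counts included. The exceptions, whose cause was not tested, follow. For Cre with IL-1β in NFKBIZ flox cells 4 of the 10 were called with no filter on low counts, where 3235 of 27745 genes were. With 24 libraries in 1 model 4 were called there, and for the interaction these 2 fits gave 3 and 2. For IL-1β and FX11 against untreated wild type DESeq2 called 3 and no filter gave 1. For the difference between lines in the Cre effect without IL-1β limma called 5 and library set 2 alone gave 0. Leaving out each library in turn gave 3 to 8 for Cre without IL-1β in LDHA flox, 3 to 5 for the interaction in LDHA flox, 1 to 3 for Cre with IL-1β and 1 to 2 for the interaction in NFKBIZ flox, and 1 to 3 for that difference between lines.

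Values that changed sign were not called in the reported fit, nor where the sign was the other. For Cre with IL-1β in NAMPT flox cells, Matn1 was at -0.00104 with DESeq2, -0.00134 with RLE factors, -0.0334 with the 10 genes and Gm26917 out of the totals, -0.0297 with 24 libraries in 1 model and -0.0928 to 0.0595 with each library left out. Col9a3 was there at 0.0263 with no filter, 0.00381 with filterByExpr and -0.0623 to 0.0254 with each library left out. Left-out libraries also gave -0.115 to 0.0235 for Matn3 with Cre without IL-1β and -0.185 to 0.0852 for Matn1 with Cre under IL-1β in LDHA flox, and -0.632 to 0.0335 for Hapln1 with Cre under IL-1β in NFKBIZ flox cells, reported at -0.26 and called at -0.632. Over the values of single genes 1778 kept their direction and their side of the threshold, 24 came to pass it and 41 ceased to.

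With the library set as a replicate block, 9 of the 10 were called for Cre without IL-1β and 7 for the interaction in LDHA flox, 10 for the interaction in NAMPT flox and 4 for the difference in the Cre effect without IL-1β, where Col9a1 was added, and the other counts of the 10 did not change. Over all genes the block raised Cre without IL-1β from 877 to 1994 in LDHA flox and from 2319 to 4311 in NAMPT flox, the interactions from 1825 to 3374 and from 3552 to 5648, and the difference between lines in the IL-1β response from 337 to 567. In NFKBIZ flox cells Cre without IL-1β called 40 genes, 71 with DESeq2, 170 with no filter and 146 with 24 libraries in 1 model, and the interaction 797, 1325 with no filter and 1428 with 24 libraries. Library set 2 alone gave 17, 53 and 2333 genes for the differences between lines in place of 337, 409 and 4782. Adding wild type to the averaged IL-1β comparison gave 4987 genes in place of 8273, with all 10 lower, and 6709 without the set 2 library labelled IL-1β, an alternative chosen after seeing the data. In wild type no filter called 8 genes for IL-1β and FX11 against untreated, and without both set 2 libraries labelled FX11 and IL-1β, also chosen after seeing the data, 0 or 1 gene was called in each comparison and 0 of the 10. Leaving out each library lowered all-gene counts to 289 from 877 for Cre without IL-1β in LDHA flox, to 1332 from 2319 in NAMPT flox and to 21 from 40 in NFKBIZ flox, to 1081 from 1825 for the LDHA flox interaction, to 1290 from 2666 for Cre with IL-1β and 2487 from 4120 for IL-1β in NFKBIZ flox, and to 168 from 409 and 166 from 337 for the differences between lines without IL-1β and in the IL-1β response, and the NFKBIZ flox interaction ranged from 344 to 1892.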
